A study of Mus musculus with 14 samples.

Results

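Transcripts that mark intraepithelial lymphocytes were followed across the small intestinal cell preparations of the study. The 10 genes were Cd3e, Cd3g, Cd8a, Gzma, Gzmb, Ccl5, Cd7, Itgae, Il2rb and Coro1a. They were taken by name from the gene tables, which list 36401 genes, and each was found there as 1 entry. RNA was sequenced from 14 libraries of C57Bl6 mice, labelled male and 6 to 12 weeks old. The libraries came from the ileum (5 to 8 cm from the cecum) and the jejunum (5 to 8 cm from the pylorus). In each region there were 2 libraries of cells sorted as CD44+/CD24lo/CD166+ (called CD166 here), 2 libraries of cells selected for LGR5, and 3 libraries of crypt cells, for which the labels give no surface marker. The tissue was dissociated mechanically and with enzymes, and the sorted cells went straight into lysis buffer. The labels do not say how LGR5 cells were recognised, whether animals were pooled, or whether libraries of 1 group came from separate animals, so p-values measure the spread between these libraries, which may be technical.

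Intraepithelial lymphocytes are T cells that sit between the epithelial cells of the gut. Many carry CD8 as a pair of alpha chains, many of them use the gamma-delta form of the T cell receptor, and most hold ready-made granules of granzymes. They are kept in place by the integrin chain encoded by Itgae, which pairs with the product of Itgb7 and binds E-cadherin on epithelial cells, and they depend on interleukin 15 presented by the epithelium, which signals through the receptor chain encoded by Il2rb. The 10 transcripts mark T and natural killer type cells in general, and Coro1a is shared by most white blood cells. The libraries are bulk RNA, so whether the cells that carried the transcripts lay within the epithelium or under it was not measured.

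Total counts ran from 6295828 to 20380369 per library, and levels are CPM, that is, counts scaled to a common library size, after TMM scaling, which corrects for differences in RNA composition. All 14 libraries held the epithelial adhesion gene Epcam, at 1027 to 1894 CPM. The stem cell receptor gene Lgr5 stood at 84.4 to 227 CPM in CD166 cells and 123 to 339 CPM in LGR5 cells, against 12.4 to 80.1 CPM in crypt cells. Some libraries stood apart from their labels. Ileum crypt 1 held 1673 CPM, and jejunum crypt 2 held 1309 CPM, of Xist, an X-linked transcript of female cells, and neither had a count of Ddx3y, a gene of the Y chromosome. Xist did not exceed 3.11 CPM in any further crypt library, whereas all 8 sorted libraries held both Xist and Ddx3y. The library labelled ileum crypt 3 had 25.8 CPM of the ileal bile acid carrier gene Fabp6 and 233 CPM of the jejunal transcription factor gene Gata4. These values lay near the 25.0 and 229 CPM of jejunum crypt 1, while ileum crypt 1 and ileum crypt 2 had 2685 and 1985 CPM of Fabp6.

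All 10 lymphocyte transcripts were far lower in sorted cells than in crypt cells. Their summed level was 6.00 and 39.5 CPM in ileum CD166 libraries, 7.61 and 8.20 CPM in jejunum CD166 libraries, 7.87 and 23.2 CPM in ileum LGR5 libraries, and 37.8 and 14.8 CPM in jejunum LGR5 libraries. The crypt libraries held 3731, 128 and 1066 CPM in the ileum and 1125, 12897 and 897 CPM in the jejunum. The highest sorted library was therefore below the lowest crypt library, which was 3.24-fold higher, and the crypt libraries themselves spanned 101-fold. In jejunum crypt 2 the 10 transcripts made up 1.14% of all counts, against 0.0129% in ileum crypt 2. In bulk RNA, fewer lymphocytes and less of each transcript per lymphocyte cannot be told apart.

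**Figure D1:**
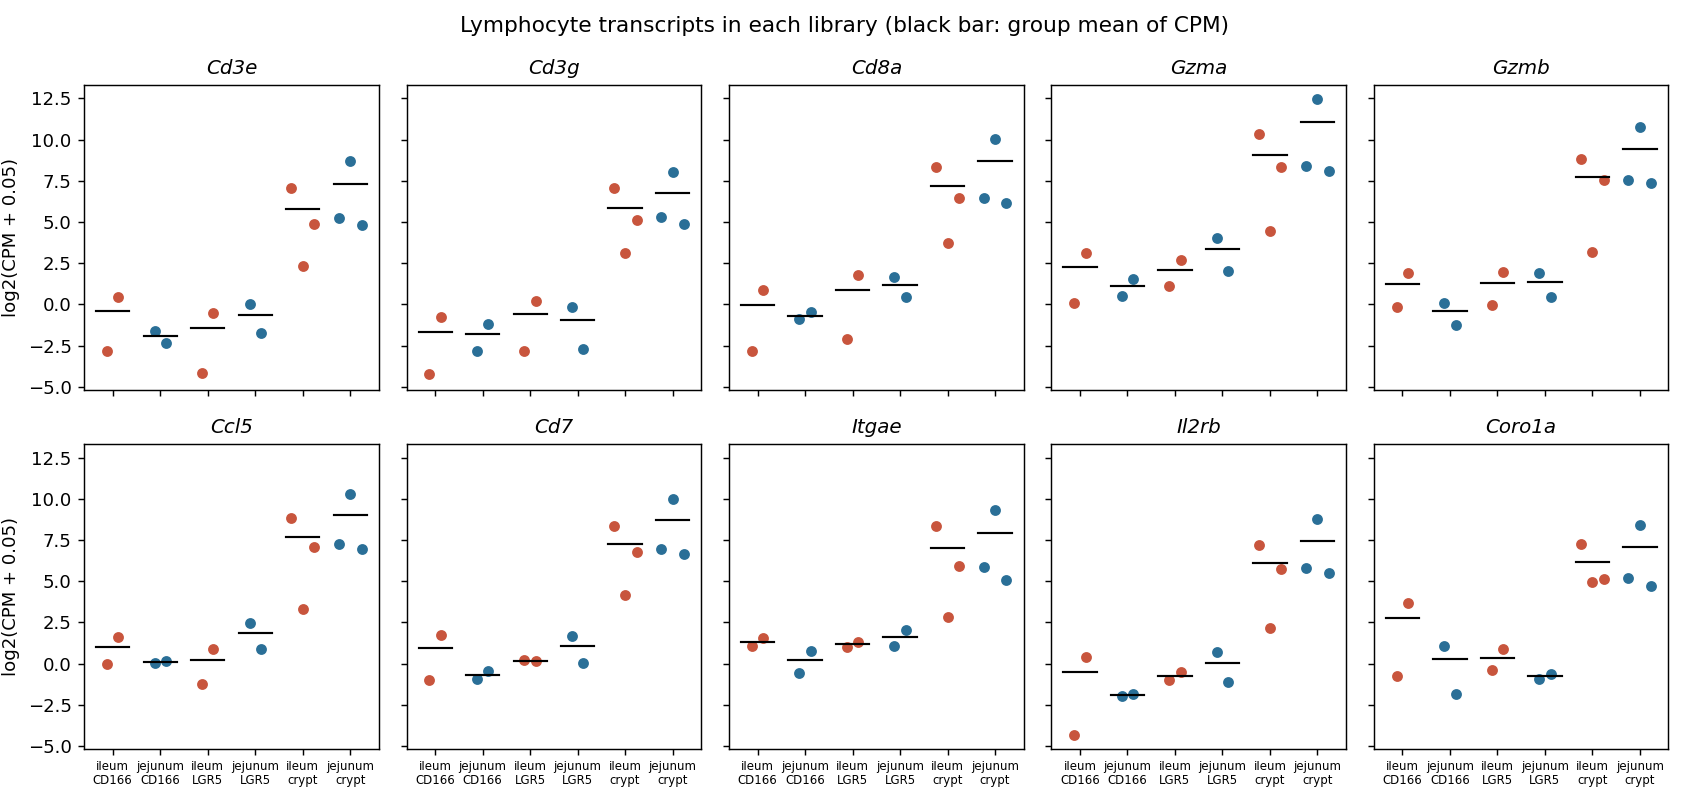
Level of each of the 10 lymphocyte transcripts, as log2(CPM + 0.05), in every library (points, red for ileum and blue for jejunum), with groups from CD166 through LGR5 to crypt along the horizontal axis and a black bar at the group mean of CPM. For every gene all 8 sorted libraries lie below all 6 crypt libraries, and jejunum crypt 2 is the highest point.

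For each of the 10 genes every sorted library was below every crypt library. Over the 14750 genes tested, 1240 showed this pattern, which is 8.41%. Within the crypt libraries the order was nearly the same for each gene. Jejunum crypt 2 was the highest and ileum crypt 1 the second highest for 10 of 10 genes, and ileum crypt 2 was the lowest for 9 of 10, the exception being Coro1a, which was lowest in jejunum crypt 3. Both of the highest libraries had Xist and no Ddx3y. The highest crypt library exceeded the lowest by 13.1-fold (Coro1a) to 265-fold (Gzma).

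Gzma had the highest crypt median per kilobase of transcript. Gzma, which encodes granzyme A, had 1.01 and 8.73 CPM in ileum CD166, 1.38 and 2.83 CPM in jejunum CD166, 2.11 and 6.45 CPM in ileum LGR5, and 16.6 and 4.01 CPM in jejunum LGR5 libraries. In crypt libraries it had 1273, 21.5 and 329 CPM in the ileum and 343, 5712 and 273 CPM in the jejunum. No sorted value reached the crypt range, but the gap was narrow for this gene, since jejunum LGR5 1 (16.6 CPM) lay close under ileum crypt 2 (21.5 CPM). Gzmb, which encodes granzyme B, the protease that starts death of the target cell, had 0.830 and 3.76 CPM in ileum CD166, 1.03 and 0.372 CPM in jejunum CD166, 0.918 and 3.87 CPM in ileum LGR5, and 3.69 and 1.31 CPM in jejunum LGR5 libraries. Its crypt levels were 451, 9.19 and 188 CPM in the ileum and 190, 1735 and 165 CPM in the jejunum. Ileum crypt 2 was thus more than an order of magnitude below the other 5 crypt libraries for Gzma and Gzmb alike. Per kilobase of merged exon, from the GENCODE M21 annotation, Gzma had the highest crypt median of the 10 genes at 334 CPM per kb, followed by Ccl5 at 150 CPM per kb, Gzmb at 132 CPM per kb and Cd7 at 103 CPM per kb.

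Promoters of both granzyme genes are shown because these genes are among the most abundant of the set and followed the same order over the crypt libraries. Each runs from 250 bases before the start of transcription to 50 bases after it, 5′ to 3′ on the gene's strand, from RefSeq on GRCm38.p6, and was not placed on mm9, the build in the submitters' processing notes. Capitals mark TGTGGT, the core motif of RUNX factors, on either strand. The Gzma promoter lies at chr13:113100932-113101231 (minus strand) and the Gzmb promoter at chr14:56262285-56262584 (minus strand).
Gzma: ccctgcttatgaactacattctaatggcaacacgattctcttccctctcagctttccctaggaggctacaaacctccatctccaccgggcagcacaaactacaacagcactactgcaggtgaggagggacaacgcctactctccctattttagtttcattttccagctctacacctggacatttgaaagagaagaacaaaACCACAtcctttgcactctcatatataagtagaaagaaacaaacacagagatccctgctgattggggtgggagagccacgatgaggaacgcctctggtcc
Gzmb: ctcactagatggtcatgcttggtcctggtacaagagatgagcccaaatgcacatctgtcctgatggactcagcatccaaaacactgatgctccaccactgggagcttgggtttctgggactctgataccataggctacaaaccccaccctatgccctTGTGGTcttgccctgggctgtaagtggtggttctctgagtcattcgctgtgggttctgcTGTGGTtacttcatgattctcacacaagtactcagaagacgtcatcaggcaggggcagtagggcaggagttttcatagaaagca
The motif occurred at 1 place in the Gzma and 2 places in the Gzmb window, and in none of the windows of Cd8a, Cd3e, Cd3g and Coro1a, the other 4 of the 10 genes with a sequence in the table. Over 32851 promoters of this length 16.8% held it. GGAAGT, the core of ETS factor sites, was found on either strand in the Cd3e window, against 23.8% of all promoters, and the AGATAA motif of GATA factors in the Cd3g window, against 11.2%. GGTGTGA, a T-box motif, was in none of them, against 3.98% of all promoters. CANNTG, the E-box, was in 6 of the 7 windows of these 6 genes, against 72.3% of all promoters, the exception being a second window of Coro1a. Motifs were searched as these exact letters on both strands.

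The receptor genes lay lower and kept the same highest, second highest and lowest crypt library. Cd3e, which encodes a signalling chain of the T cell receptor complex, had 0.0922 and 1.34 CPM in ileum CD166, 0.275 and 0.149 CPM in jejunum CD166, 0.00551 and 0.645 CPM in ileum LGR5, and 0.953 and 0.246 CPM in jejunum LGR5 libraries. Its crypt levels were 135, 4.97 and 29.9 CPM in the ileum and 37.4, 409 and 28.6 CPM in the jejunum. Cd3e in sorted libraries thus rested on 0.1 to 21.0 counts, whereas the lowest crypt library had 33.0 counts. Cd3g, another chain of the complex, was at 0.00369 to 1.13 CPM in sorted libraries, with a median of 0.249 CPM. In crypt libraries Cd3g had 131, 8.52 and 35.5 CPM in the ileum and 38.8, 264 and 29.3 CPM in the jejunum.

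Cd8a, which encodes the CD8 alpha chain, had 0.0922 and 1.78 CPM in ileum CD166, 0.482 and 0.669 CPM in jejunum CD166, 0.184 and 3.33 CPM in ileum LGR5, and 3.10 and 1.31 CPM in jejunum LGR5 libraries. Crypt libraries held 330, 13.3 and 89.3 CPM in the ileum and 87.4, 1074 and 71.1 CPM in the jejunum. The partner chain that completes the CD8 of conventional T cells is encoded by Cd8b1, and this gene, the helper T cell gene Cd4 and the receptor chain genes below were looked up after the values of the 10 genes had been seen. In crypt libraries Cd8b1 gave 3.28, 10.2 and 0.895 counts per 100 Cd8a counts in the ileum and 1.05, 1.09 and 0.996 in the jejunum. Ileum crypt 1 and ileum crypt 2 therefore stood above the other 4, with ileum crypt 2 resting on 9 Cd8b1 and 88.0 Cd8a counts. Per kilobase, the crypt median was 24.3 CPM for Cd8a, 0.766 CPM for Cd8b1 and 0.397 CPM for Cd4. Tcrg-C, a constant region gene of the gamma receptor chain, was set against Trac, the constant region of the alpha chain, without scaling for length. Tcrg-C gave 1.61, 1.47 and 2.00 counts per count of Trac in ileum crypt libraries, and 2.01, 2.40 and 1.90 in jejunum crypt libraries. Both chains were thus detected in all 6 crypt libraries, with 10 Trac counts in the lowest, ileum crypt 2. In the sorted libraries Trac had at most 7.0 and Tcrg-C at most 4.0 counts.

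Ccl5 encodes a chemokine that cytotoxic lymphocytes release. It had 0.922 and 3.06 CPM in ileum CD166, 0.964 and 1.04 CPM in jejunum CD166, 0.367 and 1.83 CPM in ileum LGR5, and 5.48 and 1.80 CPM in jejunum LGR5 libraries, against 461, 9.74 and 133 CPM in crypt libraries of the ileum and 154, 1258 and 125 CPM in those of the jejunum. Cd7, a surface receptor gene of T and natural killer cells, ran from 0.461 to 3.33 CPM in sorted libraries. It had 328, 18.1 and 111 CPM in crypt libraries of the ileum and 123, 1027 and 102 CPM in those of the jejunum. No sorted value of either gene reached the crypt range. Ileum crypt 2 was 5.45-fold above the highest sorted library for Cd7, but only 1.78-fold for Ccl5. Il2rb, the shared receptor chain for interleukins 2 and 15, had no count in ileum CD166 1, where 3 counts would be 0.286 CPM, and at most 1.55 CPM in the other sorted libraries. Its crypt levels were 149, 4.37 and 52.9 CPM in the ileum and 56.0, 429 and 44.4 CPM in the jejunum.

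Itgae, the integrin chain that holds these cells to the epithelium, had at least 9 counts in every sorted library. It had 2.03 and 2.87 CPM in ileum CD166, 0.619 and 1.64 CPM in jejunum CD166, 1.93 and 2.47 CPM in ileum LGR5, and 2.03 and 4.09 CPM in jejunum LGR5 libraries. Crypt libraries held 323, 7.12 and 61.5 CPM in the ileum and 58.3, 643 and 32.9 CPM in the jejunum. In ileum CD166 1, the sorted library with the lowest sum, Itgae made up 33.8% of the summed level of the 10 genes, against 3.66% to 8.65% in crypt libraries. Its count there was 22, against 1 count of Cd3e and 1 of Cd8a. The Itgae share was within the crypt range in jejunum LGR5 1 (5.36%), ileum CD166 2 (7.25%) and jejunum CD166 1 (8.14%). In the remaining sorted libraries it was 10.7% to 27.6%.

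Coro1a, which encodes an actin-binding protein of white blood cells, departed from the pattern of the other 9 genes. It had 0.553 and 12.9 CPM in ileum CD166, 2.08 and 0.223 CPM in jejunum CD166, 0.698 and 1.77 CPM in ileum LGR5, and 0.477 and 0.593 CPM in jejunum LGR5 libraries, against 150, 31.1 and 35.6 CPM in crypt libraries of the ileum and 36.6, 345 and 26.3 CPM in those of the jejunum. Ileum CD166 2 stood far above the other 7 sorted libraries, and ileum crypt 2 was not the lowest crypt library. The same libraries were high in genes of B lineage cells. Ileum CD166 2 held 1250 CPM of Igj, the joining chain of secreted antibodies, 1501 CPM of Igkc and 378 CPM of Ighm, which encode antibody chains. Of the 11 B and plasma cell markers found in the files none was at 0 in that library, and their sum was 1354 CPM, against 68.3 to 128 CPM in the other 7 sorted libraries. In those other 7 libraries 8 to 10 of the 11 markers were under 1 CPM, and most of the sum came from the adaptor gene Blnk. Jejunum CD166 1, second to ileum CD166 2 in Coro1a among sorted libraries, also held antibody transcripts. It had 42.4 CPM of Igj, 69.7 CPM of Igkc and 14.8 CPM of Ighm. In the remaining sorted libraries Igj did not exceed 0.409 CPM and Igkc did not exceed 1.11 CPM. Within the crypt libraries the sum was highest in ileum crypt 2, at 193 CPM, against 43.1 to 106 CPM in the other 5, and the B cell receptor gene Cd79a had 25.7 CPM there. The part of B lineage cells in the Coro1a values was not tested.

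**Figure D2:**
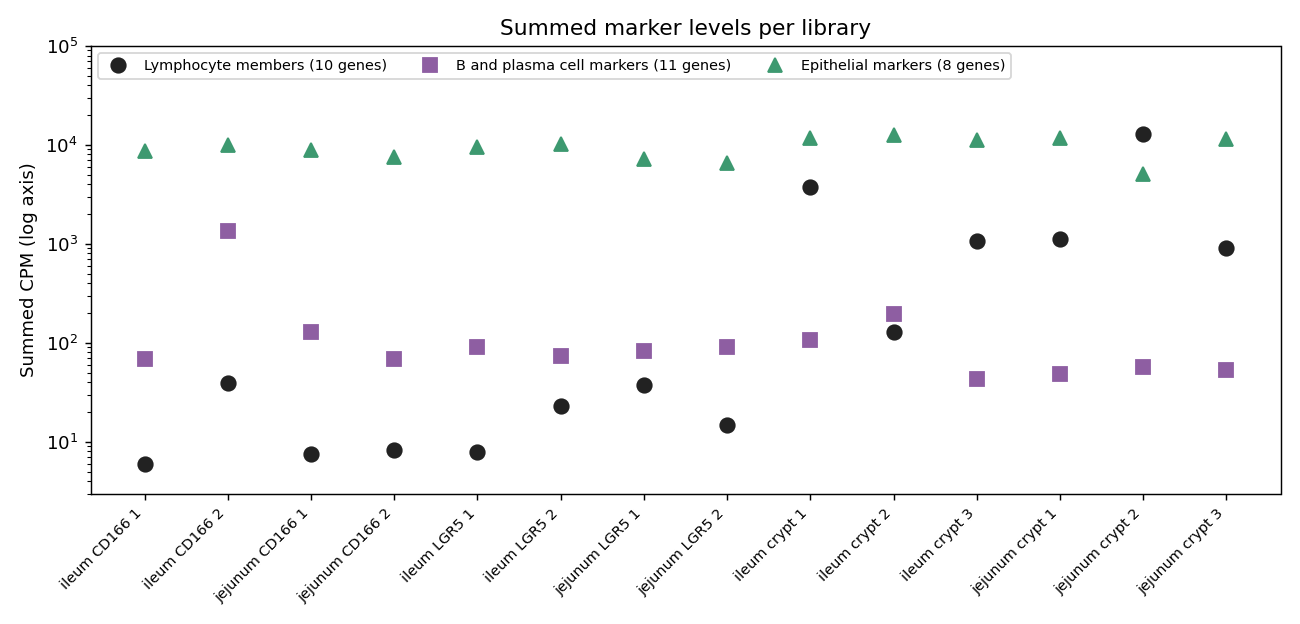
Summed CPM per library, on a log axis, of the 10 lymphocyte transcripts (black circles), 11 B and plasma cell markers (purple squares) and 8 epithelial markers (green triangles), with CD166 libraries at the left and crypt libraries at the right. The lymphocyte sum is at most 39.5 CPM in sorted libraries and at least 128 CPM in crypt libraries, and in jejunum crypt 2 it exceeds the epithelial sum of 5076 CPM. In sorted libraries other than ileum CD166 2 the B and plasma cell sum is mostly Blnk, though jejunum CD166 1 also holds 42.4 CPM of Igj.

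Jejunum crypt 2, the library with most lymphocyte RNA, had least epithelial marker RNA. The summed level of 8 epithelial markers was 5076 CPM there, against 11141 to 12477 CPM in the other 5 crypt libraries, 7595 to 9891 CPM in CD166 and 6500 to 10225 CPM in LGR5 libraries. Epcam was at 1027 CPM and the E-cadherin gene Cdh1 at 367 CPM in jejunum crypt 2, the lowest values of all 14 libraries. The next library by lymphocyte sum, ileum crypt 1, had 11654 CPM of epithelial markers, within the range of the other crypt libraries. Myeloid markers were also highest in these libraries, with a sum of 364 CPM in jejunum crypt 2 and 222 CPM in ileum crypt 1, against 52.5 to 108 CPM in the other 4 crypt libraries. Their part in the lymphocyte values was not tested, and neither was that of the epithelial share.

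The share of each gene in the summed level varied less between crypt libraries than the sum itself. In the 5 crypt libraries other than ileum crypt 2, Gzma took 30.4% to 44.3% of the summed level, Gzmb 12.1% to 18.4%, Ccl5 9.75% to 13.9%, Cd7 7.97% to 11.4%, Cd8a 7.77% to 8.85% and Coro1a 2.68% to 4.03%. Over the same 5 libraries Itgae took 3.66% to 8.65%, Il2rb 3.33% to 4.98% and Cd3g 2.04% to 3.52%. Ileum crypt 2 differed, with 16.8% for Gzma, 7.18% for Gzmb, 14.2% for Cd7 and 24.3% for Coro1a. Cd3e ranged only from 2.80% to 3.88% across all 6. The library labelled ileum crypt 3 matched jejunum crypt 1 gene by gene, with ratios of 0.798 (Cd3e) to 1.05 (Itgae).

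**Figure D3:**
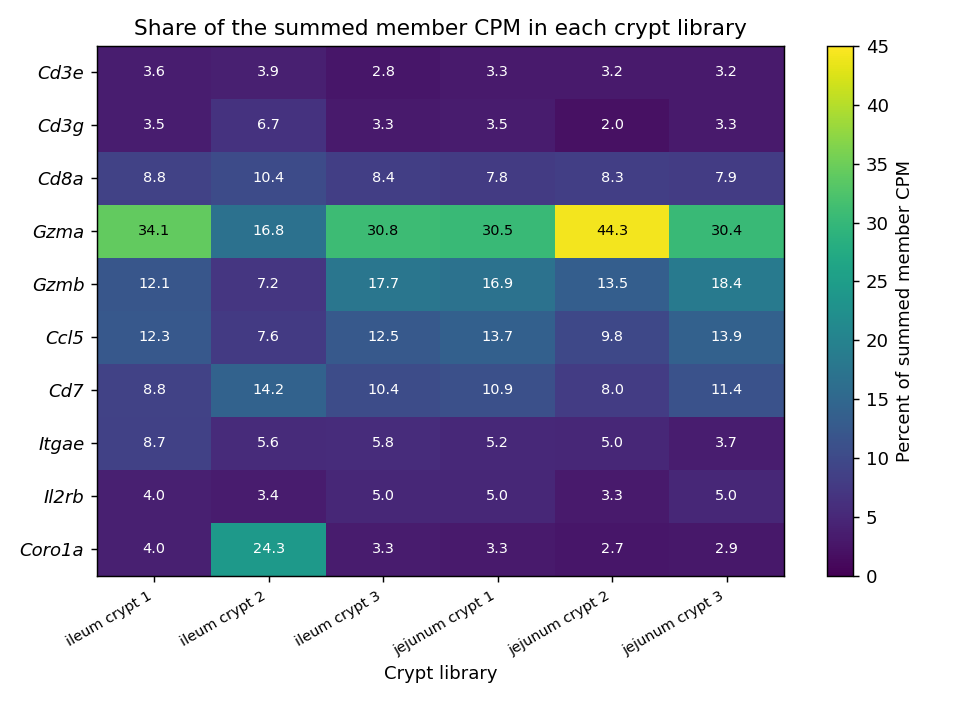
Share of the summed CPM of the 10 lymphocyte transcripts taken by each gene (rows) in each crypt library (columns), as printed percentages and by colour. Gzma takes the greatest share in 5 libraries, from 30.4% to 44.3%, whereas in ileum crypt 2 the greatest share is 24.3%, for Coro1a.

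CD166 cells were compared with crypt cells over both regions, with edgeR's quasi-likelihood test fitted to all 14 libraries and Benjamini-Hochberg adjustment over all 14750 genes tested. All 10 transcripts were tested and all 10 were called lower at an adjusted p under 0.05, where 16.5% of all genes were called lower and 30.1% were called in either direction. Filtered on the CD166 libraries alone, only 5 of the 10 were left, so the rest passed the filter on counts of other groups. For genes so low in CD166 cells a call could hardly be other than lower, unlike over all genes. Their log2 fold changes ran from -8.36 (Gzma) to -5.12 (Coro1a), with a median of -7.98 against 0.02 for all genes. Gzma fell by 8.36 ± 1.60 (SE) on the log2 scale, with an edgeR adjusted p of 0.00317. Cd8a fell by 8.29 ± 1.46 (SE), with an edgeR adjusted p of 0.00203. Cd7 had the lowest adjusted p, at 0.000982 by edgeR, with a log2 fold change of -7.86 ± 1.21 (SE), and Coro1a the highest, at 0.0062, with a log2 fold change of -5.12 ± 1.12 (SE). By limma-voom 6 of the 10 were called, and Cd3e, Cd3g, Itgae and Il2rb were not, with limma-voom adjusted p-values of 0.0775, 0.0522, 0.0609 and 0.0722.

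LGR5 cells gave a similar picture against the same crypt libraries, so the comparisons share their controls. All 10 transcripts were called lower, where 18.5% of all genes were called lower and 31.4% in either direction. Filtered on the LGR5 libraries alone, 6 of the 10 were left, so the same limit holds for this set against all genes. Log2 fold changes ran from -7.82 (Cd3e) to -6.08 (Itgae), with a median of -7.33 against -0.01 for all genes. Cd3e fell by 7.82 ± 1.46 (SE) on the log2 scale, with an edgeR adjusted p of 0.00275. Gzma fell by 7.34 ± 1.53 (SE), with an edgeR adjusted p of 0.00491. Itgae fell by 6.08 ± 1.27 (SE), with an edgeR adjusted p of 0.00513, the highest of the 10. By limma-voom 6 of the 10 were called, and Cd3e, Cd3g, Itgae and Il2rb were not, with limma-voom adjusted p-values of 0.0989, 0.0534, 0.0773 and 0.0678. Since several sorted libraries held under 3 counts of a gene (4 of the 10 genes in ileum CD166 1 and 3 in ileum LGR5 1), the sizes of these fold changes depend on few reads, while their direction is that of every library.

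**Figure D4:**
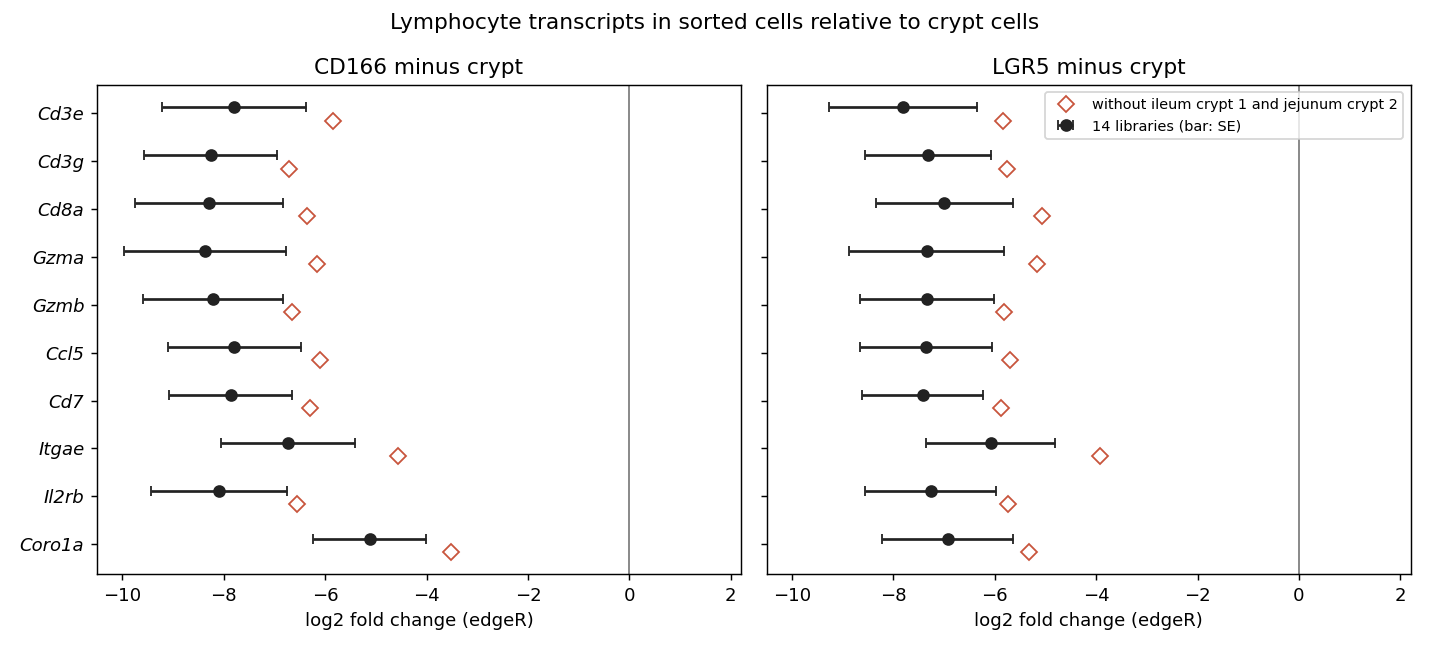
Log2 fold change from edgeR of each lymphocyte transcript in CD166 cells (left) and LGR5 cells (right) relative to crypt cells, over all 14 libraries (black circles, bars show 1 SE) and without ileum crypt 1 and jejunum crypt 2 (open red diamonds). All values are negative, with medians of -7.98 and -7.33 over 14 libraries and -6.22 and -5.72 without those crypt libraries.

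Leaving out ileum crypt 1 and jejunum crypt 2, the crypt libraries with Xist and no Ddx3y, made the differences smaller and did not end a call. All 10 transcripts were again called lower in both comparisons, with median log2 fold changes of -6.22 for CD166 cells and -5.72 for LGR5 cells. Gzma had log2 fold changes of -6.15 in CD166 cells and -5.17 in LGR5 cells in that fit, with edgeR adjusted p-values of 0.00614 and 0.0108. Leaving out the library labelled ileum crypt 3 with jejunum crypt 1 also kept 10 calls in each comparison, with medians of -8.28 and -7.63. Both choices were made after the data had been seen. Of single libraries, leaving out ileum crypt 1, jejunum crypt 2 or ileum CD166 2 moved the CD166 median to -7.36, -6.94 or -9.10. For LGR5 cells the median moved to -6.62, -6.37 or -7.96 without ileum crypt 1, jejunum crypt 2 or ileum LGR5 2, and 10 calls were kept each time.

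Within the jejunum all 10 transcripts were called lower in CD166 cells (10.1% of all genes were) and all 10 in LGR5 cells (13.8% of all genes were). Genes with few sorted counts could hardly be called other than lower in these comparisons too, unlike all genes. Within the ileum, where the crypt libraries ranged from 128 to 3731 CPM in summed level, 6 were called lower in CD166 cells (5.14% of all genes) and 3 in LGR5 cells (4.12% of all genes). The 6 were Cd3g, Cd8a, Gzmb, Ccl5, Cd7 and Il2rb, and the 3 were Cd3g, Ccl5 and Cd7. Every one of the 10 had an unadjusted p under 0.05 in each ileal comparison. Coro1a had the smallest ileal difference, a log2 fold change of -3.39 ± 1.41 (SE) in CD166 cells with an edgeR adjusted p of 0.158.

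CD166 and LGR5 cells were not distinguished by these transcripts. None of the 10 was called, against 1.61% of all genes, and none had an unadjusted p under 0.05 in edgeR, nor was any called by DESeq2 or limma-voom. Filtered on the CD166 and LGR5 libraries alone, 9 of the 10 were left, and a lack of calls among genes so thinly counted says little. The median log2 fold change was -0.74, from -1.30 to 1.81, with standard errors of 1.28 to 3.05, so that differences of several-fold in either direction would not have been detectable. Coro1a was the gene with the greatest positive value, and the median was -1.55 without ileum CD166 2 and 0.03 without ileum LGR5 2. By group mean, jejunum crypt was the highest and ileum crypt the second highest group for all 10 genes, and jejunum CD166 the lowest for 9 of 10. Gzma averaged 4.87 ± 5.45 CPM in ileum CD166, 2.10 ± 1.02 CPM in jejunum CD166, 4.28 ± 3.07 CPM in ileum LGR5 and 10.3 ± 8.88 CPM in jejunum LGR5 cells (SD, n = 2 each). In crypt cells it averaged 541 ± 652 CPM for the ileum and 2110 ± 3120 CPM for the jejunum (SD, n = 3 each). By edgeR the regions were not told apart within any population, nor the sorted populations within either region. Against ileum crypt cells, Gzma missed the threshold in CD166 and LGR5 cells of the ileum, with edgeR adjusted p-values of 0.0715 and 0.0785.

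The ileum and the jejunum were not distinguished by any of the 10 transcripts. Over all populations none was called (5.00% of all genes were), and within crypt (0%), LGR5 (0.698%) and CD166 cells (0.0203%) none was called either. The crypt share depended on the library labelled ileum crypt 3, which was near jejunum crypt 1 in Fabp6 and Gata4. Without it 614 genes were called between regions in crypt cells, and 863 without it and jejunum crypt 1, none of the 10 among them in either fit. None reached an unadjusted p under 0.05 in edgeR, and none was called by DESeq2 or limma-voom. The region by population interaction called none of the 10 (0.0136% of all genes). In crypt cells the log2 fold changes of ileum over jejunum were all negative, from -1.96 (Gzma) to -0.90 (Itgae), with a median of -1.40. Gzma had a log2 fold change of -1.96 ± 1.39 (SE) there, with an edgeR adjusted p of 0.607. The sign rested on 1 library. The median was -1.18 without ileum crypt 3 and -2.83 without ileum crypt 1, but without jejunum crypt 2 all 10 values were positive, from 0.29 to 1.53, with a median of 0.79 and none called. In CD166 cells all 10 values were positive, from 0.42 (Cd3g) to 2.56 (Coro1a), with a median of 1.46, and without ileum CD166 2 the median was -1.04. In LGR5 cells the median was -0.62, from -1.72 to 1.16, and it was 0.33 without jejunum LGR5 1 and -1.71 without ileum LGR5 2. With such a spread, regional differences of several-fold in lymphocyte transcripts were not detectable. Filtered on the compared libraries alone, 6 of the 10 were left in LGR5 cells and 5 in CD166 cells, so the lack of calls there says little.

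**Figure D5:**
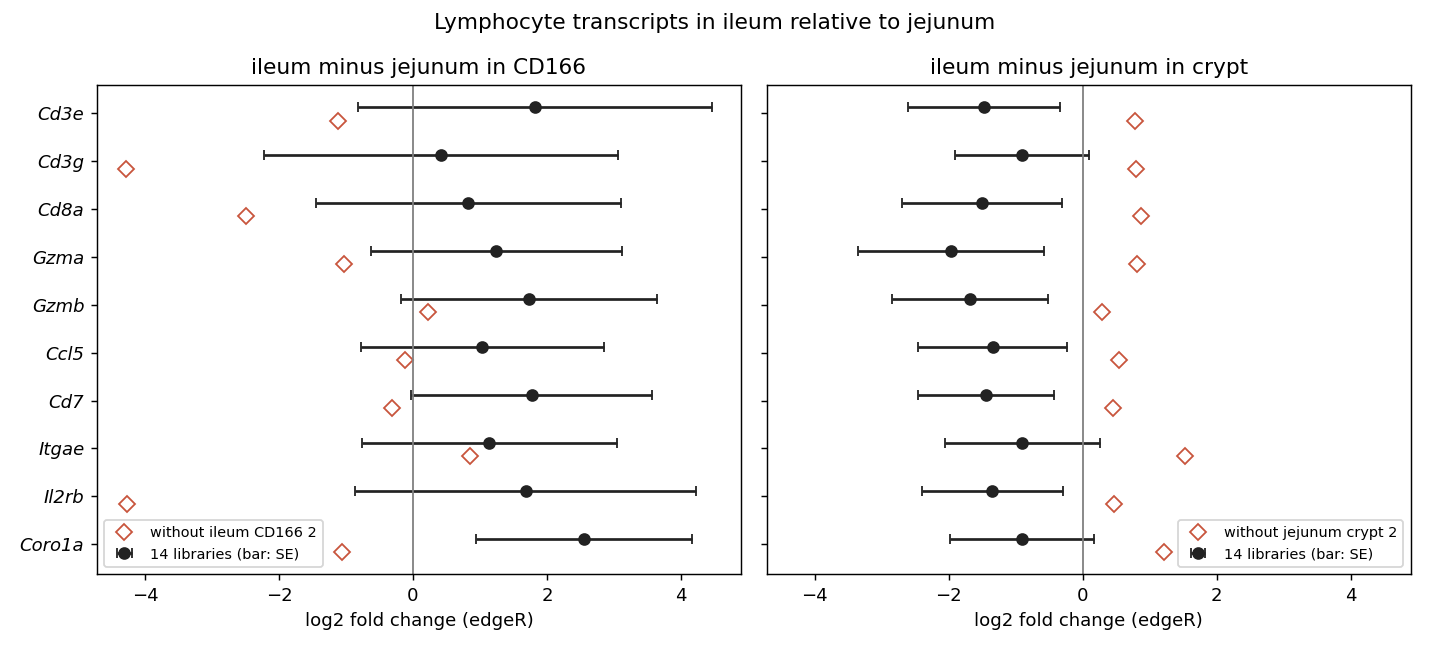
Log2 fold change from edgeR of each lymphocyte transcript in ileum relative to jejunum in CD166 cells (left) and crypt cells (right), over 14 libraries (black circles, bars show 1 SE) and without the single library named in each legend (open red diamonds). The crypt values run from -1.96 to -0.90 over 14 libraries and from 0.29 to 1.53 without jejunum crypt 2.

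Other genes of T cell receptor signalling followed the 10 transcripts. Of 22 listed and tested, 18 were called lower in CD166 cells and 18 in LGR5 cells than in crypt cells, with median log2 fold changes of -6.14 and -5.79, against 16.5% and 18.5% of all genes called lower. In each sorted library 15 to 20 of the 22 were under 1 CPM, so most passed the filter on their crypt counts. For such genes a call could hardly be other than lower, unlike over all genes. Lck, the kinase that starts T cell receptor signalling, had 1.48 and 3.08 CPM in ileum CD166, 1.45 and 1.27 CPM in jejunum CD166, 3.85 and 2.79 CPM in ileum LGR5, and 1.70 and 1.24 CPM in jejunum LGR5 libraries, against 9.22 to 254 CPM in crypt libraries. Its log2 fold change was -5.32 ± 0.96 (SE) in CD166 cells and -5.02 ± 0.96 (SE) in LGR5 cells, with edgeR adjusted p-values of 0.00243 and 0.00324. Cd247 and Cd3d, which encode further chains of the receptor complex, were called lower in both as well, with Cd3d log2 fold changes of -7.34 and -7.33. Fyb, an adaptor gene, was not called, at 16.2 to 39.9 CPM in CD166 and 7.83 to 32.1 CPM in LGR5 libraries, against 8.86 to 81.7 CPM in crypt libraries.

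Cytotoxic and natural killer type genes gave 17 of 21 called lower in CD166 cells and 18 of 21 in LGR5 cells, with median log2 fold changes of -6.30 and -6.58, against 16.5% and 18.5% of all genes called lower. The receptor gene Cd244 and the signalling adaptor genes Fcer1g and Tyrobp were among them, as was Nkg7, which encodes a protein of cytotoxic granules. Nkg7 had a log2 fold change of -7.90 ± 1.5 (SE) in CD166 cells and -6.97 ± 1.43 (SE) in LGR5 cells, with edgeR adjusted p-values of 0.00309 and 0.00463. Fcer1g and Tyrobp are also used by myeloid cells. In each sorted library 18 to 21 of the 21 cytotoxic and natural killer type genes were under 1 CPM, so most passed the filter on their crypt counts. Genes for homing, cytokine receptors and lymphocyte transcription factors gave 14 of 21 called lower in CD166 cells and 18 of 21 in LGR5 cells, against the same shares of all genes. Of the 22 listed, 11 to 20 were under 1 CPM in each sorted library. Itgb7, the partner of Itgae, had log2 fold changes of -4.28 ± 1.09 (SE) in CD166 cells and -6.72 ± 1.33 (SE) in LGR5 cells, with edgeR adjusted p-values of 0.0132 and 0.00392. Bcl11b and Tcf7, transcription factor genes of T cells, were not called, and Bcl11b was at 53.6 to 81.7 CPM in CD166 and 75.3 to 90.8 CPM in LGR5 libraries, against 49.2 to 82.5 CPM in crypt libraries. The integrin gene Itga4 was called lower in LGR5 cells only, but its log2 fold change of 3.68 in CD166 over LGR5 cells was not called, with an edgeR adjusted p of 0.168.

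Genes of all white blood cells gave 13 of 15 called lower in both sorted populations, against 16.5% of all genes in CD166 cells and 18.5% in LGR5 cells. Of the 15, 7 to 11 were under 1 CPM in each LGR5 library and 0 to 12 in each CD166 library, but 0 in any crypt library. For genes so low in sorted cells a call could hardly be other than lower, unlike over all genes. Ptprc, the CD45 gene, had 2.08 and 17.7 CPM in ileum CD166, 2.41 and 0.818 CPM in jejunum CD166, 3.21 and 16.5 CPM in ileum LGR5, and 2.86 and 2.05 CPM in jejunum LGR5 libraries, against 357, 36.4 and 62.2 CPM in crypt libraries of the ileum and 58.0, 718 and 33.9 CPM in those of the jejunum. It was called lower in CD166 cells, with a log2 fold change of -5.64 ± 1.25 (SE), and in LGR5 cells, with -5.38 ± 1.24 (SE). The GTPase gene Rac2 was called lower in both too, while Lcp1 and Vav1 were not called, with Lcp1 at 52.0 to 59.9 CPM in CD166 and 70.6 to 78.8 CPM in LGR5 libraries.

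Marker lists of other cells were less uniform, and their counts stand against 16.5% of all genes called lower in CD166 cells and 18.5% in LGR5 cells. Among 10 tested B and plasma cell markers none was called lower in CD166 cells and 3 were in LGR5 cells, with Blnk called higher in both. Blnk, an adaptor of B cell receptor signalling, was at 64.8 to 82.5 CPM in CD166 and 70.1 to 87.3 CPM in LGR5 libraries, against 23.6 to 52.8 CPM in crypt libraries. Of the other B lineage genes, Cd79b was called lower in LGR5 cells (log2 fold change -2.72 ± 0.86 SE), as was Cd22 (-4.12 ± 1.03 SE), whereas Igj was not called in either population. Of 14 tested myeloid markers 4 were called lower in CD166 cells and 9 in LGR5 cells, and Cd14 was called higher in both. Lyz2 and Itgam were not called, and Mpeg1 was called lower in LGR5 cells. Of 5 tested mast cell markers 3 were called lower in both, the protease genes Mcpt1, Mcpt2 and Cpa3, while Kit was not. Mcpt1 had no count in any CD166 library, against 8.28 to 111 CPM in crypt libraries. Of 9 tested stromal and endothelial markers 5 were called lower in both, among them Pecam1, Col3a1 and Col1a2, with Pdgfrb not called. Between regions none of the T cell receptor, cytotoxic, homing or white blood cell genes was called, against 5.0% of all genes over the populations. Among 8 epithelial markers Vil1, a gene of the brush border, was called lower and Krt18 higher in both populations, while Epcam, Krt8 and Krt19 were not called.

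Epithelial genes known to act on intraepithelial lymphocytes were also lower in sorted cells in part. Of 11 tested, 6 were called lower in CD166 cells and 6 in LGR5 cells, with median log2 fold changes of -0.86 and -0.90. Of all genes 16.5% and 18.5% were called lower, with medians of 0.02 and -0.01. Btnl6, a butyrophilin-like gene whose family shapes gut gamma-delta T cells and which was picked after its values were seen, had 32.9 and 36.9 CPM in ileum CD166, 30.8 and 32.6 CPM in jejunum CD166, 29.2 and 35.4 CPM in ileum LGR5, and 24.8 and 28.7 CPM in jejunum LGR5 libraries. In crypt libraries it had 169, 83.9 and 189 CPM in the ileum and 184, 171 and 141 CPM in the jejunum, so its spread between crypt libraries was narrow beside that of the lymphocyte transcripts. Its log2 fold change was -2.23 ± 0.22 (SE) in CD166 cells and -2.41 ± 0.22 (SE) in LGR5 cells, with edgeR adjusted p-values of 7.06e-05 and 4.2e-05. H2-T3, which encodes the thymus leukaemia antigen that binds the CD8 alpha pair, had log2 fold changes of -1.5 ± 0.17 (SE) in CD166 cells and -1.52 ± 0.18 (SE) in LGR5 cells, with edgeR adjusted p-values of 0.000185 and 0.000163. Ccl25, a chemokine that draws T cells to the small intestine, and the class I light chain gene B2m were called lower in both as well. Cdh1, the ligand of the Itgae integrin, was not called. Il18 and Il15, cytokine genes outside the rule for naming and chosen after their values were seen, were called lower in both and were highest in jejunum crypt 2, at 254 and 66.3 CPM. The sum of the 12 listed genes that were found was 3970 CPM in jejunum crypt 2, against 2049 to 3246 CPM in the other crypt libraries. The part of lymphocyte RNA in the differences of these genes was not tested.

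Among the 10 genes whose log2 levels followed the mean of the set most closely were Nkg7, Gm17004, Gm16603, Lcp2, Tcrg-V7, Zap70, Gimap4 and Tcrg-C. Pearson's r ran from 0.990 to 0.993 over 14 libraries, which share the split between sorted and crypt cells, and 181 of 14740 other genes had an r over 0.95. Spearman's rho for Nkg7 was 0.938 and for Lcp2 0.991. Zap70 encodes a kinase, and Lcp2 an adaptor, of T cell receptor signalling, Gimap4 a GTPase of lymphocytes, and Tcrg-V7 a variable segment of the gamma chain. Nkg7 had 0.0922 and 0.764 CPM in ileum CD166, 0.138 and 0.149 CPM in jejunum CD166, 0.0918 and 0.645 CPM in ileum LGR5, and 1.67 and 0 CPM in jejunum LGR5 libraries, against 101, 3.01 and 18.7 CPM in crypt libraries of the ileum and 25.1, 267 and 22.3 CPM in those of the jejunum. Between pairs of the 10 lymphocyte transcripts r was 0.906 to 0.996 over 14 libraries and 0.752 to 0.9993 over the 6 crypt libraries. Over the 8 sorted libraries, where counts were few, it was 0.072 to 0.961.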

How the data were processed

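Small intestinal cell RNA was sequenced in 14 libraries (TruSeq kit, single-end reads, per the labels). The authors deposited a gene table per library that is named for RPKM but holds expected counts: values sum to 6295828 to 20380369 and 50.6% of those above 0 are whole within 0.001. The submitters' processing notes name mm9 and DESeq without a role, and the aligner is not given in the sources used here. A second deposited table per library, of centred log2 values, was not used.

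Expected counts were rounded. Genes were kept by filterByExpr (minimum count 10, minimum total 15), which left 14750, and fitted with edgeR 4.0.16 (R 4.3.3; TMM, robust quasi-likelihood, 6 group means). Genes were called at an adjusted p under 0.05. Population contrasts average both regions. DESeq2 1.42.0, limma-voom (limma 3.58.1), other filters and scalings, a replicate block and fits leaving out libraries served as alternatives, and the script was checked on simulated counts. Named genes were the 10 transcripts, the up to 4 most abundant of each list, and the 10 most alike, of which some are not reported here. The members and lists were chosen with earlier results of these data known. Genes outside that rule (Xist, Ddx3y, Fabp6, Gata4, Igkc, Ighm, Cd79a, Cd8b1, Cd4, Trac, Btnl6, Il18, Il15 and others named beside a count) were looked up after values were seen.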

Additional observations from a re-analysis of the deposited data

How the results depend on the processing

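All 10 lymphocyte transcripts were called lower in CD166 and in LGR5 cells than in crypt cells under DESeq2, DESeq2 size factors, no filter, the compared groups alone, the contrasts within the jejunum and each of the 14 fits leaving out 1 library. The exceptions were the contrasts within the ileum, taken like those within the jejunum from the same fit to 14 libraries, with 6 calls in CD166 cells and 3 in LGR5 cells, and limma-voom, with 6 and 6, where Cd3e, Cd3g, Itgae and Il2rb lost their calls. No setting called any of the 10 that it tested between regions, in the interaction, or between CD166 and LGR5 cells. With the compared groups alone the filter left 6 of the 10 for the regions in LGR5 cells, 5 in CD166 cells and 9 for CD166 against LGR5 cells, and the interaction was not fitted. All 10 were tested under the other settings. Leaving out 1 library, the log2 fold change of Gzma in ileum over jejunum crypt ran from -3.60 to 0.82 and that of Coro1a in CD166 cells from -1.05 to 4.87. The replicate block kept 10 calls in both comparisons with crypt. Same-numbered libraries of different groups did not deviate together more than others did, so numbers were not taken as pairs. Their r was -0.50 to 0.41 over 31 pairs, against -0.70 to 0.67 over 50 pairs of other numbers. Counts over all genes moved more. Between regions 738 genes were called, against 924 with the replicate block, 1410 by DESeq2 and 138 to 1269 leaving out 1 library. In crypt cells 0 genes were called between regions by edgeR and by limma-voom, 1899 had an unadjusted p under 0.05, and DESeq2 called 323. Leaving out 1 library gave 0 to 614 there, with 614 without ileum crypt 3, 100 without jejunum crypt 1 and 80 without ileum crypt 1, and leaving out ileum crypt 3 with jejunum crypt 1 gave 863. In LGR5 cells 103 were called between regions, against 254 with the block, 773 by DESeq2, 30 by limma-voom and 1574 with the compared groups alone, and in CD166 cells 3, against 31, 186, 47 and 571. Between CD166 and LGR5 cells 238 were called, against 421 by DESeq2 and 575 with the compared groups alone. Depth limits what can be said of sorted cells, where 3 counts are 0.184 to 0.380 CPM.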
